A study of Mus musculus with 3 samples.

Results

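The cluster of miR-322, miR-503, miR-351, miR-542 and miR-450 is a group of X-linked miRNA hairpins known to be transcribed together. It was followed here through 10 mature miRNAs, of 1915 listed, in the developing mouse retina. The members were chosen by name, with earlier results of these same libraries known, so that their read counts and levels across the ages are given as a description and without a test. Total RNA came from the retinas of C57BL/6 mice (C57BL/6J in the methods) on postnatal day 1 (P1), day 7 (P7) or day 17 (P17), with no treatment named in the labels. Retinas from 5 eyes were pooled for each age and 1 small RNA library was sequenced per age, so that differences between ages have no replicate check and age cannot be told apart from library preparation. The labels do not give the sex of the pups. Levels are given as RPM, the reads of a miRNA scaled to a common total of miRNA reads per library, and a difference between ages is given on the log2(RPM + 1) scale or as a fold.

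MiRNAs guide Argonaute proteins to messenger RNAs, mainly through pairing of the seed, which comprises bases 2 to 8 counted from the 5′ end. Each hairpin can release a 5p and a 3p strand, of which usually a single one is loaded and kept. In this cluster miR-322, the mouse counterpart of human miR-424, and miR-503 carry the seed core of the miR-15/16 family, which is known for repressing cyclins and other drivers of the cell cycle, and both have been studied in muscle differentiation, where they promote withdrawal from the cell cycle. MiR-351 carries the seed of miR-125, the mammalian relative of lin-4. MiR-542-3p has been described as a repressor of survivin. The early postnatal retina still contains dividing progenitors, whereas at P17 cell birth has ended and photoreceptors have matured.

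The 7 hairpins occupy 6353 bases on the minus strand of chromosome X, from 53047997 to 53054349 in GRCm38, the assembly that mm10 names. In the order of transcription they are Mir322 (53054255 to 53054349), Mir503 (53053984 to 53054054), Mir351 (53053255 to 53053353), Mir542 (53049403 to 53049487), Mir450-2 (53048299 to 53048367), Mir450-1 (53048154 to 53048244) and Mir450b (53047997 to 53048078). No other GENCODE M21 gene overlaps any of them. The RefSeq annotation of the long non-coding RNA gene C430049B03Rik (53053112 to 53057190, minus strand) includes the first 3 hairpins, while the GENCODE gene of that name (53055046 to 53057190) includes none. A gap of 3767 bases separates Mir351 from Mir542, and within it GENCODE places the lincRNA gene Gm28730 (53051194 to 53053159, minus strand).

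All 10 members matched a RefSeq mature sequence (GRCm38.p6). They are shown because the seed separates members that share targets in principle from members that do not. Seed bases are in capitals, and the miRNAs outside the locus that hold most of the reads with the same seed are placed beside them. Members with the bases AGCAGC at positions 2 to 7 are
mmu-miR-322-5p: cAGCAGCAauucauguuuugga
mmu-miR-503-5p: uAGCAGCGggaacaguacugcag
mmu-miR-16-5p: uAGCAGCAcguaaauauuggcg
mmu-miR-15b-5p: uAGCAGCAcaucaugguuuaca
The member with the miR-125 seed is
mmu-miR-351-5p: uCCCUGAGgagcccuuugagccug
mmu-miR-125a-5p: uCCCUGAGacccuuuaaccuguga
mmu-miR-125b-5p: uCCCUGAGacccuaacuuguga
The remaining members are
mmu-miR-450a-5p: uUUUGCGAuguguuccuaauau
mmu-miR-450b-5p: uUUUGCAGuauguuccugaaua
mmu-miR-542-3p: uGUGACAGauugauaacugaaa
mmu-miR-322-3p: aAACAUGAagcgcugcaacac
mmu-miR-503-3p: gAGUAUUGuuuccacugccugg
mmu-miR-542-5p: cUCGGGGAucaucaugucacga
mmu-miR-351-3p: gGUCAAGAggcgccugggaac

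Within the AGCAGC group, miR-322-5p has the full AGCAGCA seed, which it shares with 9 other listed miRNAs, and miR-503-5p differs from it at the last seed base (A8G, counted from the 5′ end). MiR-351-5p is identical to miR-125a-5p and miR-125b-5p over its first 8 bases. Compared position by position without gaps, it matches them at 10 of 24 and 10 of 22 positions in all. An alignment with gaps, which could match more bases, was not made. MiR-450a-5p is produced with the same sequence by Mir450-1 and Mir450-2, so the reads of the 2 hairpins cannot be told apart. MiR-450b-5p matches it at 15 of 22 positions, with differences in the seed at G7A and A8G, and no other listed miRNA has the seed of either. The seeds of miR-542-3p, miR-322-3p, miR-503-3p and miR-351-3p are likewise found in no other listed miRNA with a RefSeq sequence, and that of miR-542-5p in 1 other, miR-6966-5p.

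Depth was similar, with 11426320 (P1), 12759995 (P7) and 11659722 (P17) miRNA reads, so that 1 read is worth 0.0784 to 0.0875 RPM. Photoreceptor miRNAs (miR-183-5p, miR-96-5p and miR-182-5p) summed to 77854 RPM at P1 and 301141 RPM at P17, and miR-9-5p and miR-124-3p of neural retina together to 145803 and 86788 RPM, so the defining miRNAs of the tissue were present. Because RPM is a share, a larger part taken by some miRNAs lowers all others. For the 648 miRNAs whose RPM averaged 1 or more, the median log2 change was -0.87 between P1 and P7, -0.05 between P7 and P17 and -0.91 between P1 and P17. With size factors by the median of ratios, which set the typical miRNA to no change, these medians were -0.04, 0.03 and 0.01. Changes of the members are therefore also given under that scaling or relative to the median, and shares within the cluster, which do not depend on scaling, are given where possible.

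The 10 members together took 19508 (P1), 6919 (P7) and 2977 (P17) reads. This corresponds to 0.171% of the miRNA reads at P1 (95% exact binomial interval 0.168 to 0.173), 0.0542% at P7 (0.0530 to 0.0555) and 0.0255% at P17 (0.0246 to 0.0265). Intervals here and elsewhere cover counting error only, because 1 library per age shows no variation between animals or preparations. Reads amplified by PCR are not independent molecules, so the intervals may be too narrow even for counting error. The summed level was thus highest at P1 and lowest at P17, with no overlap of the intervals. It was 3.15-fold lower at P7 than at P1 (exact interval 3.06 to 3.24), 2.12-fold lower at P17 than at P7 (2.03 to 2.22) and 6.69-fold lower at P17 than at P1 (6.43 to 6.95). On the log2 scale the sum changed by -1.65, -1.08 and -2.74 over these steps with RPM, against -0.69, -1.0 and -1.69 with median-of-ratios size factors. Between these scalings the size of the first step differed far more than that of the second. Per day, the log2 change with RPM was -0.28 between P1 and P7 and -0.11 between P7 and P17, whereas with median-of-ratios size factors it was -0.12 and -0.10.

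**Figure D1:**
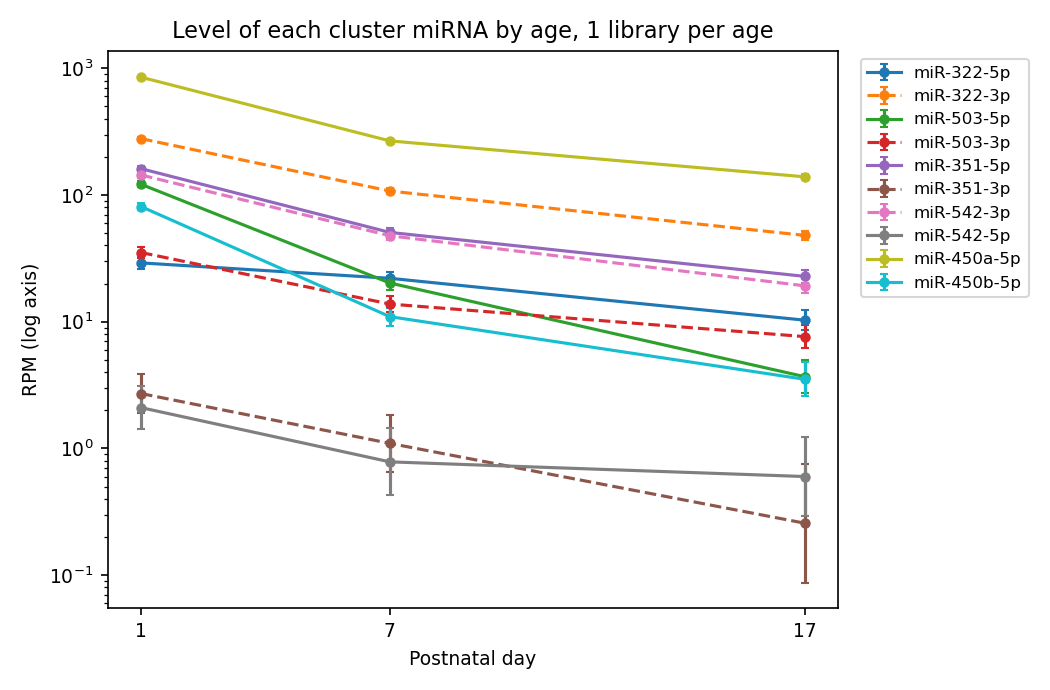
RPM of each of the 10 cluster miRNAs (log axis) against postnatal day, with 1 library per age, 95% Wilson intervals of counting error as bars and dashed lines for 3p strands. All 10 lines descend, and those of miR-503-5p and miR-450b-5p lie above miR-322-5p at P1 and below it at P7 and P17. At P7 the intervals of miR-503-5p and miR-322-5p overlap.

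MiR-450a-5p, released by both Mir450-1 and Mir450-2, was the most abundant member in every library. At P1 it took 9728 reads (851 RPM), at P7 3412 reads (267 RPM) and at P17 1624 reads (139 RPM), and it ranked 97, 123 and 166 among the miRNAs of the 3 libraries. Its level was highest at P1, and it was 6.11-fold lower at P17 (exact interval 5.80 to 6.45). Next came miR-322-3p, the more abundant strand of Mir322, with 3184 reads (279 RPM), 1372 (108 RPM) and 560 (48.0 RPM), a 5.80-fold lower level at P17 than at P1 (5.30 to 6.36). The intervals of these P1 to P17 folds overlap. At the first step they did not, with miR-450a-5p 3.18-fold lower (3.06 to 3.31) and miR-322-3p 2.59-fold lower (2.43 to 2.76). Because adaptor ligation favours some RNA ends over others, the order of different miRNAs within a library is an order of reads and not of molecules.

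MiR-351-5p, the member with the miR-125 seed, had 1845 reads at P1 (161 RPM), 647 at P7 (50.7 RPM) and 266 at P17 (22.8 RPM), and was 7.08-fold lower at P17 than at P1 (6.22 to 8.08). MiR-542-3p had 1645 reads (144 RPM), 609 (47.7 RPM) and 224 (19.2 RPM), and was 7.49-fold lower (6.51 to 8.66). These members followed nearly the same course as miR-450a-5p up to P7. The ratio of miR-351-5p to miR-450a-5p reads, whose hairpins lie on either side of the gap in the locus, was 0.190 (P1), 0.190 (P7) and 0.164 (P17). The P17 interval (0.143 to 0.187) overlaps the P1 interval (0.180 to 0.199) only narrowly, which does not show that the ratio was unchanged. The ratio of miR-542-3p to miR-450a-5p was 0.169 at P1 and 0.178 at P7, and lower at P17, at 0.138 (0.119 to 0.159). The 3 upstream hairpins, Mir322, Mir503 and Mir351, supplied 36.8% of the reads of the 10 members at P1 (36.1 to 37.5), 39.7% at P7 (38.6 to 40.9) and 36.3% at P17 (34.6 to 38.1). The split between the upstream and downstream parts of the locus was therefore nearly constant while the sum dropped, with a slightly larger upstream share at P7.

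MiR-503-5p and miR-450b-5p were lowered more than the other members with over 100 reads at P1. MiR-503-5p, which carries the AGCAGCG seed printed above, had 1389 reads at P1 (122 RPM), 258 at P7 (20.2 RPM) and 43 at P17 (3.69 RPM). Its level at P17 was 33.0-fold lower than at P1 (24.3 to 45.8), and it was lower by 6.01-fold at the first step (5.26 to 6.89) and 5.48-fold at the second (3.96 to 7.76). Among the 648 miRNAs its decrease from P1 to P17 on the log2(RPM + 1) scale, -4.71, was in place 9. MiR-450b-5p had 927 reads at P1 (81.1 RPM), 140 at P7 (10.97 RPM) and 41 at P17 (3.52 RPM), which is 23.1-fold lower at P17 (16.9 to 32.4), and its log2 change of -4.18 was in place 14. The intervals of these folds overlap each other and lie above those of miR-450a-5p, miR-322-3p, miR-351-5p and miR-542-3p. Relative to the median of all 648 miRNAs, the P1 to P17 log2 changes were -3.80 for miR-503-5p and -3.27 for miR-450b-5p with RPM, and -3.75 and -3.23 with median-of-ratios size factors.

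The miR-450 pair, whose sequences are alike, diverged. For every read of miR-450a-5p there were 0.0953 reads of miR-450b-5p at P1 (exact interval 0.0890 to 0.102), 0.0410 at P7 (0.0344 to 0.0486) and 0.0252 at P17 (0.0180 to 0.0344). Thus the ratio was lower at each later age, most of it by P7, although Mir450-1 and Mir450b are adjacent in the locus. Which hairpin of the miR-450a pair supplied the reads is unknown, and the counting rule for reads that match both miR-450a-5p and miR-450b-5p in part is not given in the sources used here.

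Among members with over 100 reads at P1, miR-322-5p and miR-503-3p had the smallest folds between P1 and P17. MiR-322-5p had 333 reads at P1 (29.1 RPM), 281 at P7 (22.0 RPM) and 120 at P17 (10.3 RPM). It was 1.32-fold lower at P7 than at P1 (1.13 to 1.56) and 2.83-fold lower at P17 than at P1 (2.29 to 3.52). It was the only member whose first step changed sign under the scalings tried, with a log2 change of -0.39 in RPM, 0.53 under median-of-ratios size factors, 0.56 with TMM factors and 0.22 with a library total that leaves out the 10 most abundant miRNAs of any library. MiR-503-3p had 402 reads (35.2 RPM), 176 (13.8 RPM) and 89 (7.63 RPM), a 4.61-fold lower level at P17 (3.66 to 5.87).

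The scarcest members were the minor strands of Mir351 and Mir542. MiR-351-3p had 31 (P1), 14 (P7) and 3 (P17) reads, the last being the count at which the floor of detection was set, and its P17 to P1 fold of 10.5 lower has an interval of 3.29 to 53.9. MiR-542-5p had 24, 10 and 7 reads and was 3.50-fold lower at P17 (1.46 to 9.62). Both were below 1 RPM at P17 and passed the abundance filter mainly through their P1 level. For miR-542-5p the direction after P7 was not detectable at this depth, since the interval of that fold runs from 0.449 to 4.04. The 3p strands of the miR-450 hairpins, which are not among the 10, were also scarce. MiR-450b-3p had 97, 18 and 9 reads, miR-450a-2-3p had 10, 6 and 5, and miR-450a-1-3p had 7, 6 and 3.

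All 10 members averaged 1 RPM or more, and all 10 had a lower RPM at both steps, as did 48.8% of the 648 miRNAs. With median-of-ratios size factors 9 members were lower at both steps, against 31.2% of all miRNAs, the exception being miR-322-5p. From P1 to P17, 9 of the 10 members were over 2-fold lower, where 46.8% of all miRNAs were, and with median-of-ratios size factors 8 were, where 23.9% were. These counts are made after 1 RPM is added to each value, unlike the folds above, so that scarce members can fall short. MiR-542-5p, 3.50-fold lower at P17 than at P1 without it, had a log2 change of -0.95 and was not counted. From P1 to P7 there were 7 over 2-fold lower, beside 44.8% of all miRNAs, but only 2 with median-of-ratios size factors, beside 11.3%. From P7 to P17 there were 6, beside 11.6%, and 5 with median-of-ratios size factors, beside 10.6%. No member was over 2-fold higher at any step under either scaling, where 3.09%, 14.0% and 10.5% of all miRNAs were with RPM for the first step, the second and both together, and 9.57%, 16.0% and 25.5% with median-of-ratios size factors. Since the decrease was known when the cluster was chosen, these shares are printed as the background and nothing is read from the difference.

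The median log2 change of the 10 members was -1.47 at the first step, -1.07 at the second and -2.56 over both, beside -0.87, -0.05 and -0.91 for all miRNAs. Among the 8 members with at least 1 RPM in every library the medians were -1.61, -1.13 and -2.69, and 7, 6 and 8 of them were over 2-fold lower, beside 44.8%, 11.6% and 46.8% of all miRNAs. With median-of-ratios size factors the medians of the 10 were -0.52, -1.0 and -1.52. Those of the 8 were then -0.66, -1.05 and -1.65, and 2, 5 and 7 of the 8 were over 2-fold lower, beside 11.3%, 10.6% and 23.9% of all miRNAs.

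**Figure D2:**
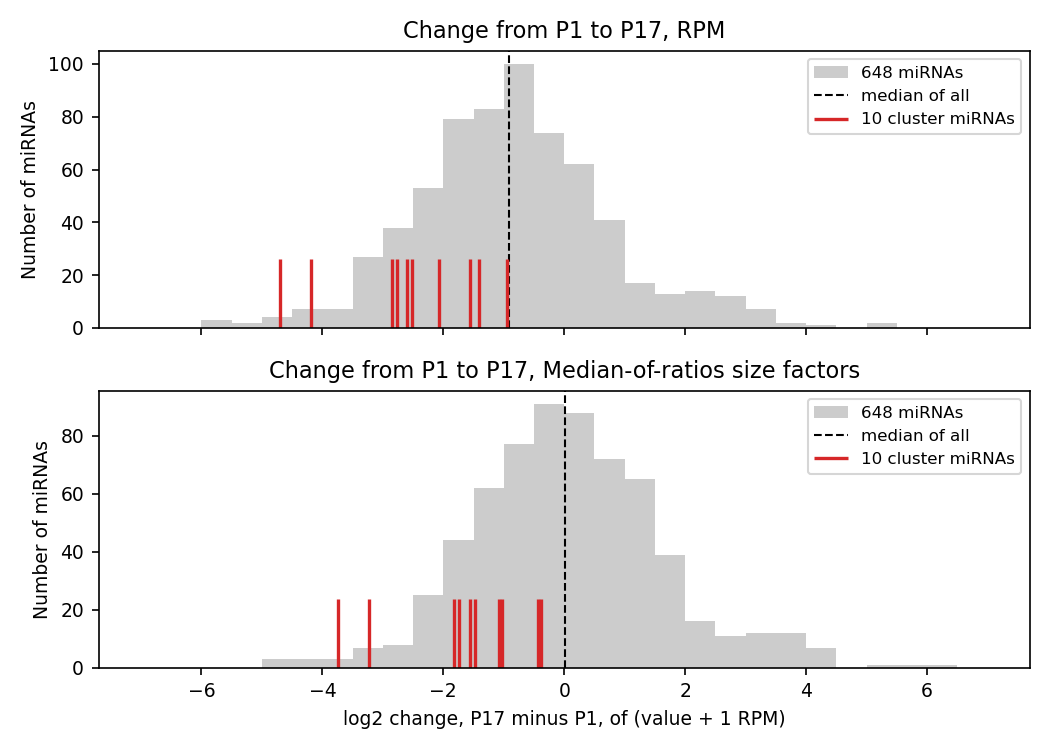
Number of miRNAs (grey bars) by their log2 change from P1 to P17, with RPM above and median-of-ratios size factors below, for the 648 miRNAs that averaged 1 RPM or more, with red lines for the 10 cluster miRNAs and a dashed line for the median of all (-0.91 and 0.01). All 10 red lines lie to the left of the dashed line in both panels, that of miR-542-5p by as little as 0.04 above, with miR-503-5p and miR-450b-5p farthest from it.

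The make-up of the cluster's own reads, which no scaling affects, differed between P1 and P17 beyond counting error for miR-450a-5p, both strands of Mir322, both strands of Mir503 and miR-450b-5p, and not for the strands of Mir351 and Mir542. MiR-450a-5p held 49.9% of the reads of the 10 members at P1, 49.3% at P7 and 54.6% at P17 (exact interval 52.7 to 56.4). MiR-351-5p held 9.46%, 9.35% and 8.94%, with overlapping intervals at all ages. MiR-503-5p went from 7.12% (6.76 to 7.49) to 3.73% (3.29 to 4.20) and 1.44% (1.05 to 1.94), and miR-450b-5p from 4.75% (4.46 to 5.06) to 2.02% (1.70 to 2.38) and 1.38% (0.990 to 1.86). MiR-322-5p moved the other way, from 1.71% (1.53 to 1.90) to 4.06% (3.61 to 4.55) at P7 and 4.03% (3.35 to 4.80) at P17. MiR-322-3p held 16.3%, 19.8% and 18.8%, and miR-503-3p 2.06%, 2.54% and 2.99%.

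**Figure D3:**
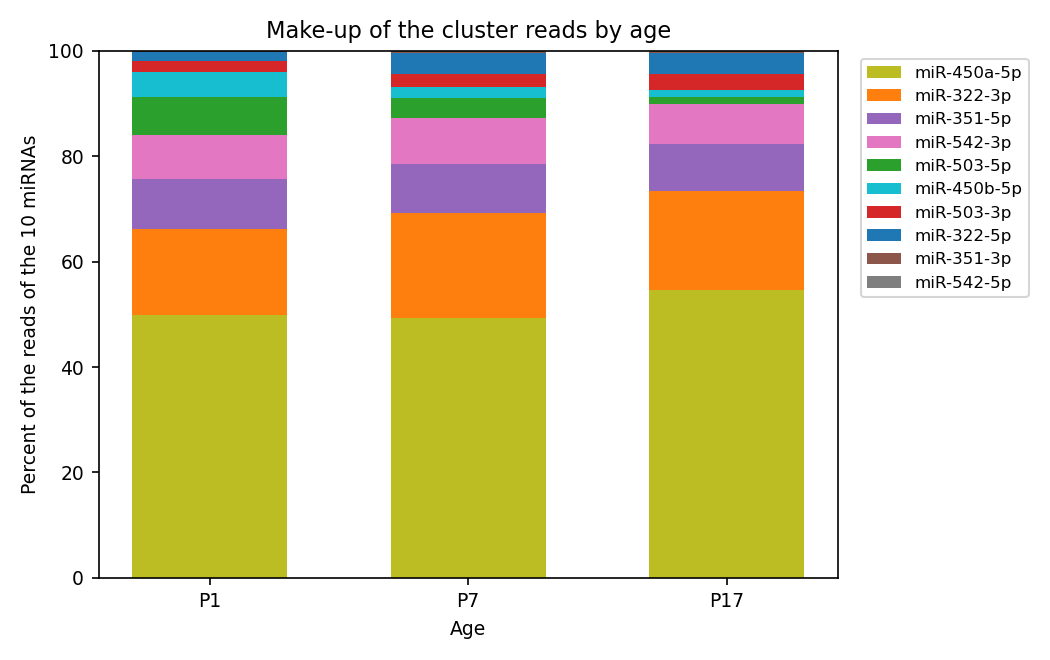
Share of the reads of the 10 cluster miRNAs taken by each, in percent, at P1, P7 and P17 (1 library each, 19508, 6919 and 2977 reads). MiR-450a-5p takes the largest part at all ages, between 49.3% and 54.6%, while the parts of miR-503-5p and miR-450b-5p shrink and that of miR-322-5p grows.

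The strands of single hairpins gave a further comparison that does not depend on scaling. The Mir503 hairpin is shown here because its more abundant strand differed between the ages, and Mir322 because its 3p strand was the more abundant at each age. The 5p strand and then the 3p strand are in capitals.
Mir503: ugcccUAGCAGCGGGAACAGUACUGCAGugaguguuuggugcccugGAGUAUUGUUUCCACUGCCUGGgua
Mir322: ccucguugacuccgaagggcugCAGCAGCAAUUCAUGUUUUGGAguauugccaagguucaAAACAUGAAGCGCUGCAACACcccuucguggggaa

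For Mir503 there were 3.46 reads of 5p per read of 3p at P1 (exact interval 3.09 to 3.87), 1.47 at P7 (1.21 to 1.79) and 0.483 at P17 (0.328 to 0.703). Thus 5p was the more abundant strand at P1 and P7, and 3p at P17. This ratio on the log2 scale changed by -1.24 from P1 to P7 (-1.56 to -0.92), by -1.60 from P7 to P17 (-2.19 to -1.01) and by -2.84 over both steps (-3.39 to -2.29). In 190 hairpins with both strands past the filter, under matching names and with reads in every library, the median change of this ratio from P1 to P17 was 0.16 and the middle 90% lay between -1.90 and 1.77, and 2 hairpins had a lower value than Mir503. Of these 190, 8 had more 5p reads at P1 and not at P17, Mir503 among them, and 9 changed in the opposite direction.

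For Mir322 the 3p strand exceeded the 5p strand by 9.56-fold at P1, 4.88-fold at P7 and 4.67-fold at P17. The 5p strand's share of the hairpin's reads was 9.47% at P1 (8.52 to 10.5), 17.0% at P7 (15.2 to 18.9) and 17.6% at P17 (14.9 to 20.7). It was therefore higher at P7 than at P1 and indistinguishable between P7 and P17. On the log2 scale this balance changed by 1.03 from P1 to P17 (0.71 to 1.36), a value above that of 80.5% of the 190 hairpins. The strand balance of these neighbouring hairpins, which carry the same seed core in their 5p strands, thus moved in opposite directions.

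The other hairpins kept their more abundant strand. Mir351 gave 59.5 reads of 5p per read of 3p at P1, 46.2 at P7 and 88.7 at P17, with intervals that overlap (30 to 433 at P17). Mir542 gave 68.5 reads of 3p per read of 5p at P1, then 60.9 at P7 and 32.0 at P17. The interval of the log2 change of its 5p to 3p ratio from P1 to P17 includes no change (-0.13 to 2.33). Mir450b gave 9.56 reads of 5p per read of 3p at P1, 7.78 at P7 and 4.56 at P17, with a change of -1.07 (-2.15 to 0.01). For miR-450a, with both 3p forms added, the ratio was 572 at P1, 284 at P7 and 203 at P17 (103 to 471), resting on 17, 12 and 8 reads of 3p. Its change from P1 to P17, -1.5, had an interval below 0 (-2.71 to -0.28). As for levels, a ratio between strands is one of reads and not of molecules.

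**Figure D4:**
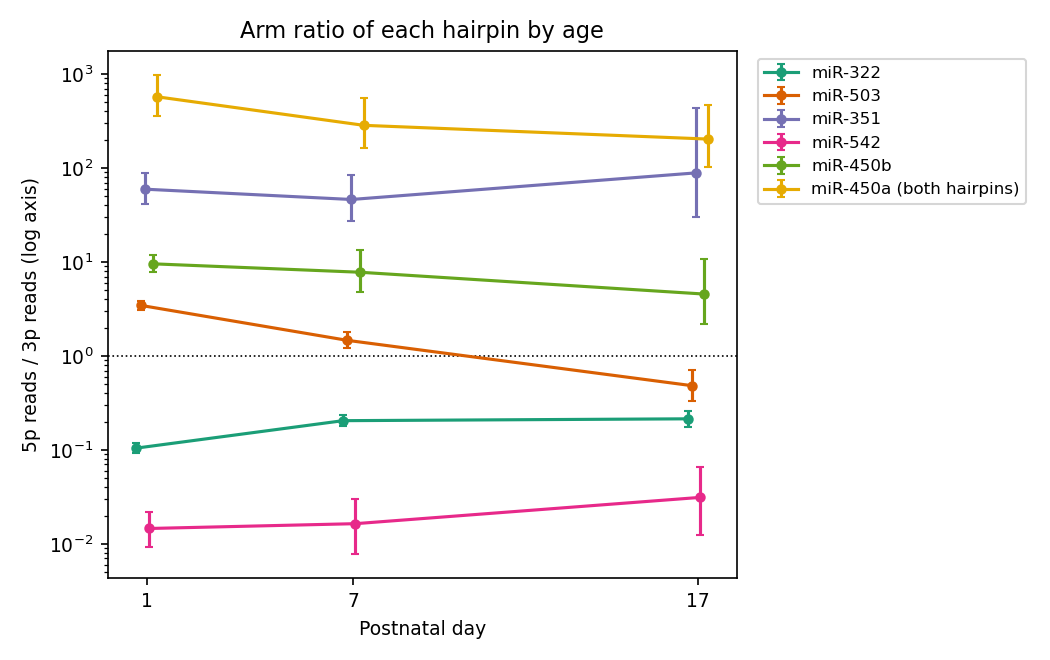
Reads of the 5p strand divided by reads of the 3p strand (log axis) by hairpin against postnatal day, with 95% exact intervals of counting error as bars, a dotted line at equal reads, points shifted slightly sideways, and Mir450-1 and Mir450-2 added because they share their 5p sequence. The line of miR-503 crosses from 3.46 at P1 to 0.483 at P17, and the other lines stay on their side of the dotted line.

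Among members with the AGCAGC core, the more abundant one differed between ages. There were 0.240 reads of miR-322-5p per read of miR-503-5p at P1 (0.212 to 0.270), 1.09 at P7 (0.917 to 1.29) and 2.79 at P17 (1.95 to 4.05). At P7 the 2 could not be told apart by level. Both were minor carriers of this core in the retina. The 11 listed miRNAs with these bases, 9 of them with a read, summed to 4531 (P1), 3537 (P7) and 2565 (P17) RPM, and miR-16-5p held 86.3%, 88.0% and 90.5% of those reads. MiR-15b-5p, the next at P1 and P7, held 6.55%, 4.14% and 2.56%. The cluster's part was 3.33% at P1 (3.17 to 3.48), 1.19% at P7 (1.10 to 1.30) and 0.545% at P17 (0.465 to 0.635). Most of the decrease in reads was that of miR-503-5p, which went from 2.68% to 0.572% and 0.144% of the pool, while miR-322-5p held 0.643%, 0.623% and 0.401%. Unlike these shares, the level of the pool depends on scaling. From P1 to P17 miR-16-5p changed in log2 by -0.75 with RPM and by 0.29 with median-of-ratios size factors.

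MiR-351-5p shared its seed with 2 abundant miRNAs from other loci. Of the reads with CCCUGA at positions 2 to 7, miR-125b-5p held 56.5% (P1), 63.3% (P7) and 73.9% (P17), and miR-125a-5p 40.9%, 35.6% and 25.7%. MiR-351-5p held 2.55% at P1 (2.44 to 2.67), 1.17% at P7 (1.08 to 1.27) and 0.317% at P17 (0.280 to 0.357). The pool as a whole was at 6326 (P1), 4324 (P7) and 7198 (P17) RPM, so it did not follow the course of miR-351-5p.

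**Figure D5:**
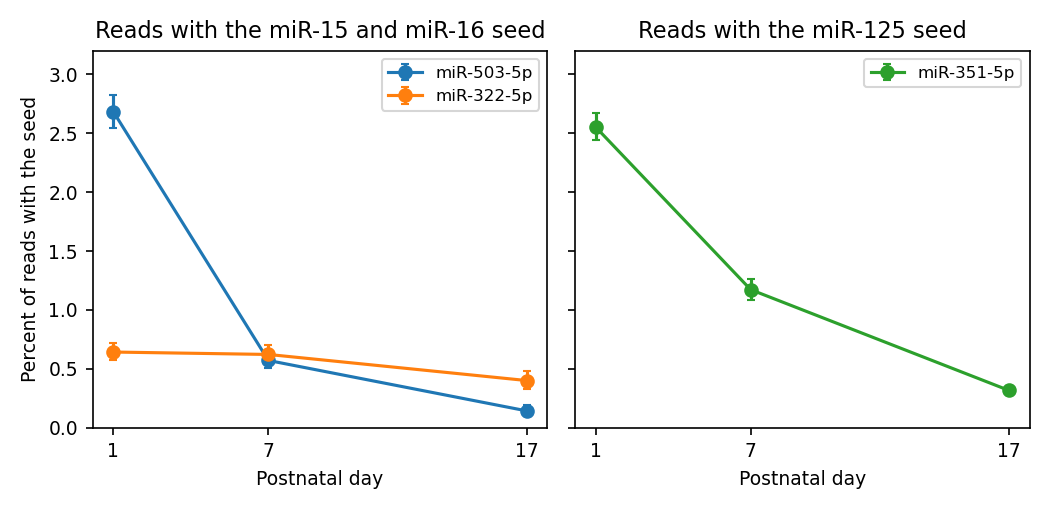
Percent of the reads that carry a given seed core (bases 2 to 7) contributed by the cluster, against postnatal day, with 95% exact intervals of counting error as bars, for the core of the miR-15/16 family on the left and that of miR-125 on the right. From P1 to P17 miR-503-5p drops from 2.68% to 0.144%, miR-351-5p from 2.55% to 0.317% and miR-322-5p from 0.643% to 0.401%.

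The miRNAs outside the locus with a course most like that of miR-450a-5p, the member with the most reads, were found by the Euclidean distance between log2(RPM + 1) profiles centred on their mean over the 3 libraries, among 423 miRNAs that averaged 10 RPM or more. They were miR-374c-3p (distance 0.05), miR-16-2-3p (0.07), miR-467a-3p and miR-467d-3p (0.09 each, with the same counts in every library) and miR-301a-3p (0.13). Within the cluster the distance was 0.14 for miR-351-5p, 0.22 for miR-322-3p, 0.24 for miR-542-3p and 0.39 for miR-503-3p, and above 1 for miR-322-5p (1.01), miR-450b-5p (1.15) and miR-503-5p (1.5). Several miRNAs of other loci were nearer to miR-450a-5p than any member of its own cluster. However, they were picked as the smallest of 423 distances over only 3 libraries, while few members were compared. Nothing about the cluster is therefore read from this order. MiR-374c-3p, which is also on chromosome X, had 74.0 (P1), 23.8 (P7) and 11.5 (P17) RPM.

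The miR-17-92 cluster, a set of hairpins on an autosome that is known for driving proliferation, gives a comparison with the same libraries. Of its 12 mature forms 11 passed the filter, and their median log2 change was -1.55 at the first step and -1.73 at the second with RPM, against -1.47 and -1.07 for the 10 members. With median-of-ratios size factors the medians were -0.59 and -1.65, against -0.52 and -1.0. From P7 to P17 all 11 were over 2-fold lower under both scalings, where 6 of the 10 members were with RPM and 5 with median-of-ratios size factors, beside 11.6% and 10.6% of all miRNAs. No test of the difference was possible with 1 library per age.

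In a whole retina a lower level can mean fewer cells of a type or less RNA per cell, and these cannot be told apart. Marker lists are compared in RPM. That of neurons and neural retina (miR-9-5p and miR-124-3p) was lower at both steps, as the cluster was, with sums of 145803, 127817 and 86788 RPM. Within it miR-9-5p was lower at both steps (144259, 125762 and 74011 RPM) and miR-124-3p higher (1544, 2055 and 12777 RPM). This likeness to the cluster was limited to RPM. From P1 to P17 miR-9-5p changed in log2 by -0.96 with RPM and by 0.08 with median-of-ratios size factors. The cluster sum changed by -2.74 and -1.69, and miR-124-3p by 3.05 and 4.09. No other list had its lowest summed level at P17. The 4 muscle miRNAs (miR-1a-3p, miR-133a-3p, miR-133b-3p and miR-206-3p) summed to 133 (P1), 90.3 (P7) and 241 (P17) RPM, the 2 endothelial strands of miR-126a to 1261, 3643 and 8530, and the 2 mural miRNAs miR-143-3p and miR-145a-5p to 195, 376 and 1492. The 2 pigment and ciliary epithelium miRNAs summed to 15211, 7226 and 14334 RPM, and the 4 leukocyte miRNAs to 13.6, 17.7 and 35.9. Of the pigment and ciliary epithelium list, miR-204-5p (14661.5, 6967 and 9019 RPM) was lower at P17 than at P1, and miR-211-5p (550, 259 and 5315) was higher. The sum of the 2 red blood cell miRNAs (46.7, 12.9 and 32.3 RPM) and miR-122-5p of liver (5.78, 2.27 and 3.6) were lowest at P7. That sum was mostly miR-451a (45.5, 11.7 and 27.9 RPM), while miR-144-3p (1.14, 1.18 and 4.46) was lowest at P1. Of the surface and lens epithelium list, miR-205-5p (2.71, 0.31 and 0.69 RPM) and miR-200c-3p (17.3, 3.37 and 1.63) were over 2-fold lower at P17 than at P1, the latter lower at both steps as the cluster was, while miR-184-3p (101, 119 and 569) was higher at P17. No marker on these lists was at 0 in every library, and their part in the result was not tested.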

How the data were processed

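MiRNAs of mouse retina at P1, P7 and P17 were sequenced as 1 small RNA library per age (NEBNext kit, 5 eyes pooled, reads of 50 nt), and ages were taken from the labels. The authors trimmed adaptors, discarded low-quality reads and aligned the rest to mm10. The methods name HISAT2, while the submitters' processing notes list BWA and FastQC, and the miRNA annotation and counting rule are not given in the sources used here. The authors deposited, without normalization, a read count for each of the 1915 mature miRNAs listed, and RPM values that equal the count divided by the library's sum of miRNA counts to within 0.0192 RPM.

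From the deposited values, log2(RPM + 1) was computed, and the 648 miRNAs that averaged 1 RPM or more formed the background. The fold criterion was 2, as in the methods, and members were counted by it after 1 RPM was added. Folds printed with an interval have no such addition. The adjusted p-value criterion was not used because 1 library per age gives no spread. Ratios and shares have 95% exact (Clopper-Pearson) intervals and RPM has Wilson intervals. The intervals of changes in a strand ratio are normal approximations on the log2 scale. The floor was 3 reads, or 0.235 to 0.263 RPM. Size factors used 644 miRNAs with reads in every library (1.5, 0.862 and 0.743 at P1, P7 and P17), and TMM factors were 1.59, 0.801 and 0.785. The alternatives were these scalings, a total leaving out the 10 miRNAs most abundant in any library, pseudocounts of 0.1 and 5 RPM, no filter and a filter of 10 RPM, fold criteria of 1.5 and 4, the sum without its largest member, other definitions of the seed pools and 0.5 read added to each strand. Members and lists were chosen with earlier results of these data known. Named miRNAs are the members, the other strands of their hairpins, miRNAs with at least 5% of a seed pool, the 5 nearest profiles and the marker lists. MiR-374c-3p was singled out after its values were seen.

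Sequences came from RefSeq (1623 of the listed miRNAs matched), positions from GENCODE M21 and RefSeq. Calculations were tested on simulated data and used edgeR 4.0.16 (TMM only) under R 4.3.3, and scipy 1.17.1, pandas 2.3.3, matplotlib 3.10.9 and numpy 2.4.6 under Python 3.11.15.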

Additional observations from a re-analysis of the deposited data

How the results depend on the processing

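Of 102 alternative values for the main quantities 78 shifted by less than the counting error (for counts of members, by at most 1.5 times) and 24 by more. No sum or median changed direction. Counts and shares have no direction that could change, and members over 2-fold higher numbered 0 under every setting, so these add little to the 78. Counting error is here the distance from a fold without pseudocount, or from a share, to its interval limit. The medians of members have no such interval, so their sorting into less or more does not rest on a counting error of their own. With median-of-ratios size factors the summed level of the cluster changed by -0.69 at the first step (P1 to P7), -1.0 at the second (P7 to P17) and -1.69 over both, against -1.65, -1.08 and -2.74, with TMM factors by -0.66 at the first step and -1.72 over both, and with the total without the 10 most abundant miRNAs by -1.03, -1.33 and -2.36. Without miR-450a-5p the sum changed by -1.24 from P7 to P17 and -2.87 over both. The median of the members from P1 to P7 was -0.52, -0.49 and -0.86 under these 3 scalings and from P1 to P17 -1.52, -1.55 and -2.19. Members over 2-fold lower at P7 numbered 2, 2 and 4, against 7, and a fold criterion of 4 left 2 at the first step and 1 at the second. Of all miRNAs, 44.8% were over 2-fold lower at P7 with RPM and 11.3% with median-of-ratios size factors. For the other settings of these counts the share of all miRNAs was not computed, so nothing about the cluster is read from them. With the seed taken as bases 2 to 8, which leaves out miR-503-5p by construction, miR-322-5p held 0.661%, 0.626% and 0.402% of its pool at P1, P7 and P17. From P1 to P7 the sign turned for miR-322-5p (0.53, 0.56 and 0.22), miR-16-5p (0.63, 0.66 and 0.30) and miR-125b-5p (0.57, 0.60 and 0.24) under the 3 scalings, and for miR-125a-5p with size factors and TMM factors (0.21 and 0.24). It also turned, with counting intervals that include 0, for miR-450a-1-3p (0.19, 0.20 and 0.15) under the 3 scalings and for miR-450a-2-3p with size factors and TMM factors (0.02 and 0.03). From P1 to P17 it turned with size factors and TMM factors for miR-125a-5p (0.56 and 0.53) and miR-16-5p (0.29 and 0.26), and with size factors for miR-450a-2-3p (0.006). Beyond the scaling itself the cause was not tested. Of the values for single members 93 shifted by less than the counting error, 54 by more, and 3, those of miR-322-5p, reversed. Depth limits miR-351-3p and miR-542-5p, with 3 and 7 reads at P17. No paired analysis was possible because the labels give a single library for every age.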
